A study of Caenorhabditis elegans with 8 samples.

Results

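The genes described here are 10 cuticle collagens of Caenorhabditis elegans that are named for the body shape of their mutants and lie outside the group that shapes the annular furrows. They are the dumpy genes dpy-5, dpy-13 and dpy-17, the roller genes rol-1, rol-6 and rol-8, the squat genes sqt-1, sqt-2 and sqt-3, and the long gene lon-3. They were found by symbol in the gene column of both deposited tables, as 10 of 20541 listed genes, and all 10 had a completed test in each. Whole young adults of the wild type N2 and of the strain HC125 gave polyadenylated RNA for 4 libraries per strain. The design text sets wild-type worms against worms that carry Psid-1::gfp, a transgene in which the sid-1 promoter drives green fluorescent protein, and HC125 is taken to be that strain. The sources used here do not give how the transgene is carried or which other sequences came with it. Replicates 1 and 2 of each strain were paired-end libraries without strand information, and replicates 3 and 4 were single-end stranded libraries from another preparation system. Each experiment has its own table with 1 pooled value per gene and strain in FPKM, fragments per kilobase of transcript scaled to mapped fragments. Values per library and their spread are thus not shown, the read depth is unknown, and the labels leave unsaid whether replicates came from separate cultures. If they did not, the deposited p-values reflect technical variation between libraries only. Pairs of FPKM values below are N2 against HC125, and ratios are HC125 over N2.

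The worm's cuticle is an outer coat of collagens that the epidermis makes anew before every moult. Each collagen chain is short, trimerises through its Gly-X-Y repeats, is trimmed by proteases and is then cross-linked outside the cell. The genes are known for pulses of transcription that recur with the moulting cycle. Because different collagens build different layers and bands, loss of a single member can leave a worm short and fat (dumpy, squat), coiled about its own axis (roller) or too long. Whole worms were measured, so fewer cells of a type and less RNA per cell cannot be told apart.

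The members lie on 5 chromosomes in the WBcel235 annotation, with 5 of them on chromosome II. They have between 1 and 5 exons and spliced lengths of 855 to 1467 bases. Of the 10, 8 overlap no other annotated gene, which matters for the paired-end libraries because these cannot separate strands. The exceptions are sqt-3 (chromosome V, 12352745 to 12354320, plus strand), crossed by a noncoding RNA on the minus strand, and lon-3 (chromosome V, 12197437 to 12198645, minus strand). lon-3 lies inside an intron of ZK836.2, a plus-strand gene that the annotation calls ogdh-2, and the deposited tables give both genes a common locus.

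The strains differed in sid-1, which measured 31.9 against 2.11 FPKM in the paired-end libraries and 12.9 against 0.818 FPKM in the single-end libraries. These values alone do not show that HC125 carries Psid-1::gfp. A higher value in HC125 was found for 41.7% of 15114 genes tested with paired-end and 40.04% of 13150 tested with single-end libraries. Over the same genes the median log2 ratio of (FPKM + 1) was -0.03 and -0.04. RNA of epidermal cells was present in both strains: lin-26, which specifies epidermal fate, measured 74.7 against 69.7 FPKM and then 36.1 against 35.2 FPKM.

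With paired-end libraries 5 of the 10 collagens were called higher in HC125 and none lower, at a deposited q of 0.05 or less. Over all genes tested 0.179% were called higher and 0.0331% lower. The 5 were dpy-5, dpy-13, rol-1, rol-8 and sqt-1, each with p = 5e-05 and q = 0.0270 in the authors' deposited table. With single-end libraries none of the 10 was called, against 0.0684% of genes tested called higher and 0.0532% lower. No member was therefore called in both experiments, as 0.0386% of the 12954 genes tested in both were. At a deposited p under 0.05, without adjustment, 8 members were higher with paired-end libraries (background 0.926%) and none lower (background 0.351%). The corresponding single-end counts were 3 higher (background 1.22%) and 1 lower (background 1.16%).

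**Figure D1:**
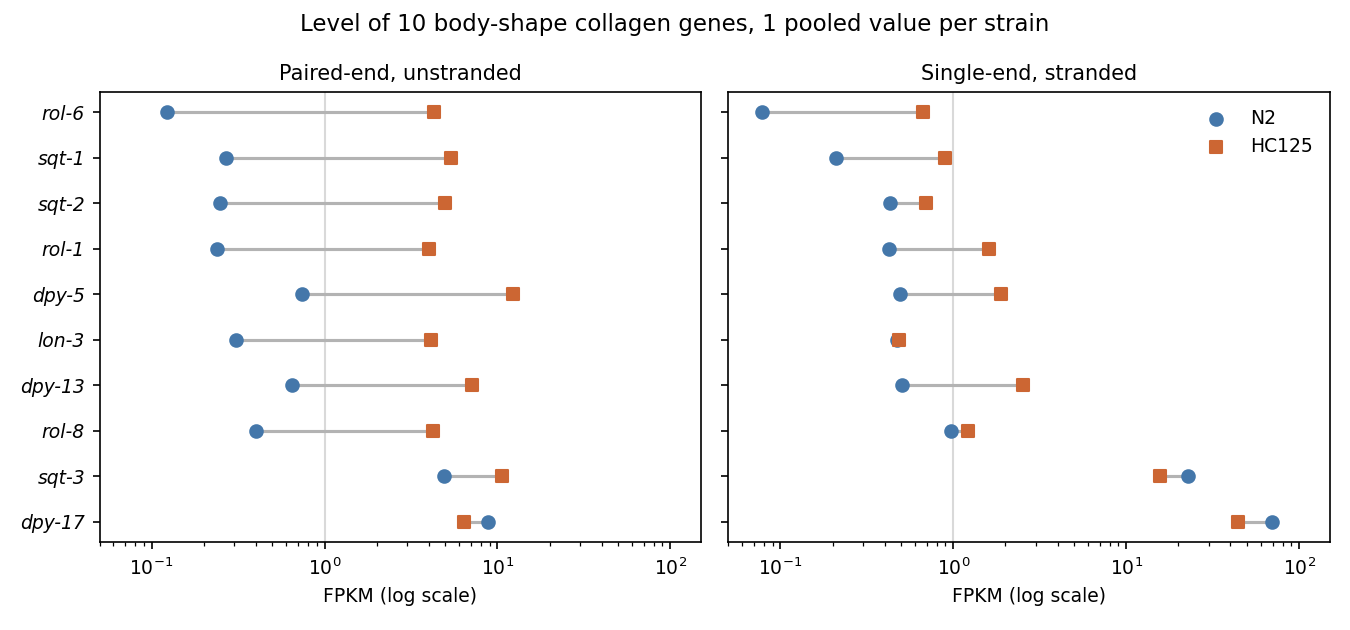
Level of each of the 10 genes in N2 (circles) and HC125 (squares), in FPKM on a log axis, in the paired-end (left) and single-end (right) experiment. Each point is the authors' pooled value of a strain, joined by a line. In N2 8 genes lie under 1 FPKM in both panels, while dpy-17 and sqt-3 lie above it.

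The N2 levels put the genes into 2 sets, which were set apart after the values were seen. In N2, 8 genes were under 1 FPKM in both experiments, from 0.123 to 0.739 FPKM with paired-end and from 0.0782 to 0.969 FPKM with single-end libraries. Among the genes tested, these N2 levels stood between percentiles 0.787 and 12.1, and between 0.243 and 14.03. In HC125 the same 8 genes measured 4.02 to 12.3 FPKM with paired-end libraries, percentiles 35.2 to 52.3, a range wholly above that of N2. The single-end range in HC125, 0.487 to 2.53 FPKM and percentiles 3.52 to 28.6, overlaps that of N2. Because low N2 values set these 8 genes apart, the choice itself favours higher values in HC125. Of all tested genes with an N2 level above 0 and under 1 FPKM, 60.2% were higher in HC125 with paired-end libraries. With single-end libraries the share was 57.8%. The remaining genes, dpy-17 and sqt-3, lay well above 1 FPKM in every pool. In HC125 with paired-end libraries they measured 6.42 and 10.7 FPKM, inside the range of the other 8. They made up most of the members' summed FPKM in N2, 82.3% with paired-end and 96.3% with single-end libraries.

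The dumpy genes dpy-5 and dpy-13 had the highest HC125 levels among the 8 low genes in both experiments. dpy-5, whose loss makes the worm short, measured 0.739 against 12.3 FPKM with paired-end libraries and 0.492 against 1.87 FPKM with single-end libraries. HC125 exceeded N2 in both, by a ratio of 16.6 (95% interval 4.96 to 55.8) and then of 3.81 (0.955 to 15.2). For the single-end difference the authors' deposited table lists p = 0.01605 but q = 1.00. dpy-13, another dumpy collagen, measured 0.646 against 7.08 FPKM and then 0.506 against 2.53 FPKM. Its ratio was 10.95 (95% interval 3.13 to 38.3) and then 5.002 (0.970 to 25.8), the latter with p = 0.01735 in the authors' deposited table. Of the 8 low genes, dpy-13 had the smallest gap between its log2 ratios in the experiments.

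Among the roller genes the paired-end ratios ran from 10.7 to 34.9. The top of that range was rol-6, whose dominant alleles make worms roll and are widely used as visible markers of transgenes. rol-6 measured 0.123 against 4.28 FPKM with paired-end libraries and 0.0782 against 0.671 FPKM with single-end libraries. It had the lowest N2 level and the highest ratio of FPKM of the 10 in both experiments, 34.9 (95% interval 7.75 to 157) and 8.59 (1.04 to 70.8). That rank rests on the low N2 values and is lost with FPKM + 1. The log2 ratios of rol-6 were then 2.23 and 0.63, below the 2.93 and 0.95 of dpy-5. rol-6 was not called: the authors' deposited tables list p = 0.0012 with q = 0.313, and p = 0.163 with q = 1.00. Whether HC125 carries a rol-6 marker is unstated in the labels.

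rol-1, a collagen whose mutants roll as adults, measured 0.239 against 4.02 FPKM and then 0.425 against 1.61 FPKM. Its ratios of 16.9 (95% interval 3.79 to 75.0) and 3.80 (0.945 to 15.3) were close to those of dpy-5, with a single-end p = 0.0205 in the authors' deposited table. rol-8, the third roller gene, measured 0.399 against 4.26 FPKM with paired-end libraries, a ratio of 10.7 (3.39 to 33.7). Its single-end levels were 0.969 against 1.21 FPKM, a ratio of 1.25 (0.362 to 4.32) with p = 0.620 in the authors' deposited table. rol-8 was thus called with paired-end libraries, while its single-end interval spans 1, as does that of every other member called with paired-end libraries.

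The squat genes sqt-1 and sqt-2 had nearly equal paired-end ratios. sqt-1, in which different alleles give squat, roller or dumpy worms, measured 0.269 against 5.39 FPKM, a ratio of 20.04 (95% interval 4.71 to 85.2). sqt-2 measured 0.249 against 4.96 FPKM, a ratio of 19.9 (5.36 to 73.8). Of this pair sqt-1 alone was called, since sqt-2 had p = 0.00025 and q = 0.0922 in the authors' deposited table. The single-end levels of sqt-1 were 0.211 against 0.892 FPKM, a ratio of 4.23 (0.706 to 25.4) with p = 0.270 in the authors' deposited table. Those of sqt-2 were 0.430 against 0.696 FPKM, a ratio of 1.62 (0.328 to 7.99) with p = 0.394 in the authors' deposited table. Both genes had the higher value in HC125 there too, with intervals that span 1.

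lon-3 encodes a collagen whose loss lengthens the worm and whose excess shortens it. It measured 0.306 against 4.14 FPKM with paired-end libraries, a ratio of 13.5, and 0.469 against 0.487 FPKM with single-end libraries, a ratio of 1.04. The authors' deposited tables list p = 0.120 and p = 0.963. Its implied standard errors of 6.76 and 5.58 on the log2 scale were the widest of the 10, against 0.53 to 1.11 for the other 9 with paired-end libraries, so its ratio is nearly unbounded. The gene around it, ZK836.2, measured 66.2 against 63.1 FPKM and then 43.2 against 37.9 FPKM. Without strand information, paired-end reads of lon-3 and of the intron that holds it cannot be told apart.

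sqt-3 and dpy-17 differed from the rest in level in every pool but that of HC125 with paired-end libraries. They also differed in direction with single-end libraries (both genes) or with paired-end libraries (dpy-17). sqt-3 encodes a collagen that the astacin protease DPY-31 trims and that embryos already need, and dpy-17 is placed by genetics in the same pathway. sqt-3 measured 4.93 against 10.7 FPKM with paired-end libraries, a ratio of 2.16 (95% interval 1.05 to 4.46, p = 0.01245 and q = 1.00 in the authors' deposited table). With single-end libraries it measured 22.6 against 15.7 FPKM, a ratio of 0.696 (0.364 to 1.33, p = 0.112 in the authors' deposited table). It is the only one of the 10 whose direction differed between experiments.

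dpy-17 measured 8.84 against 6.42 FPKM with paired-end and 69.9 against 44.2 FPKM with single-end libraries. Its ratios were 0.726 (95% interval 0.327 to 1.61, p = 0.309 in the authors' deposited table) and 0.633 (0.404 to 0.992, p = 0.0053 and q = 1.00 there). It is the only one of the 10 with the lower value in HC125 in both experiments. Among N2 levels dpy-17 ranked at percentile 46.9 with paired-end and 83.1 with single-end libraries, and sqt-3 at 38.1 and 62.5. The place of both genes among all N2 levels was thus higher with single-end libraries, and their strain differences were not called in either experiment. Replicates, library kit, read layout and strandedness all changed together between experiments and cannot be told apart.

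**Figure D2:**
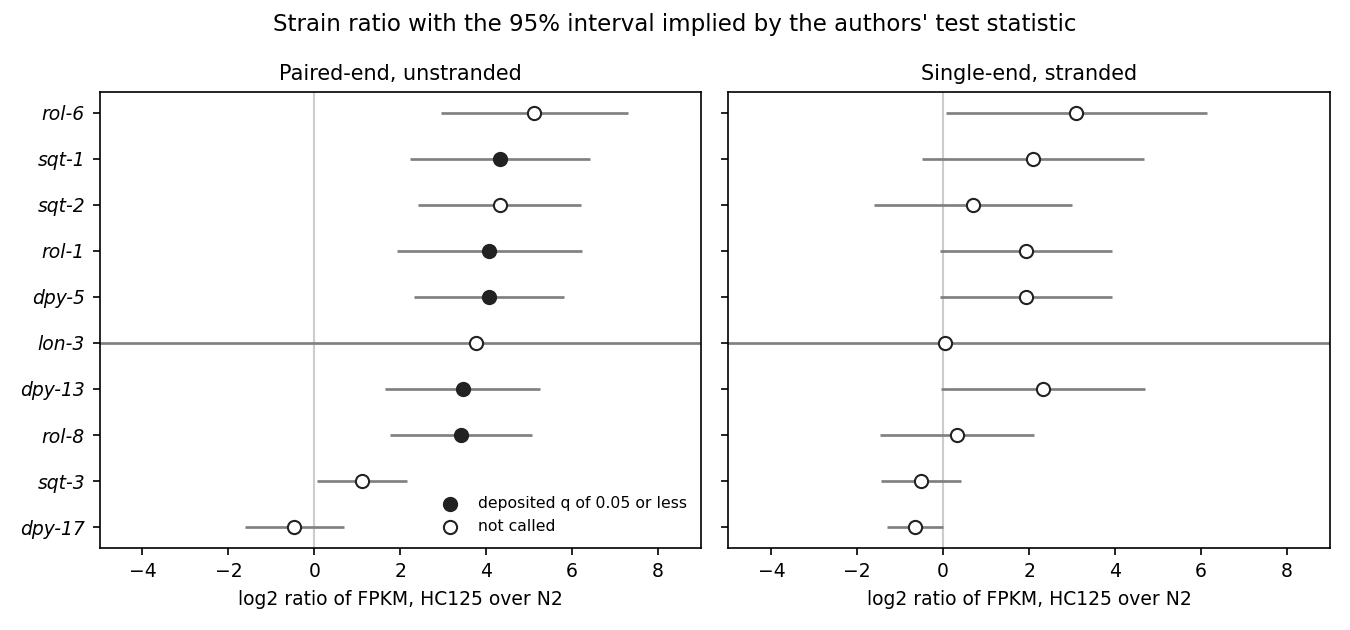
Log2 ratio of FPKM, HC125 over N2, for each gene in the paired-end (left) and single-end (right) experiment, with the 95% interval implied by the authors' test statistic. Filled points have a deposited q of 0.05 or less, and open points were not called; the lines of lon-3 run beyond both edges of the axis.

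Across the members as a list, the median log2 ratio of (FPKM + 1) was 2.13 with paired-end and 0.44 with single-end libraries, beside the -0.03 and -0.04 of all genes tested. The pseudocount of 1 shrinks the ratio of genes at these levels: the paired-end log2 ratio of rol-6 was 5.12 from FPKM and 2.23 from FPKM + 1. Of the 10, 9 were higher in HC125 with paired-end and 8 with single-end libraries, and the 8 low genes were higher with both. Over the 12954 genes tested in both experiments, 17.5% were higher in both. Over the 642 of these with an N2 level above 0 and under 1 FPKM in both, the share was 34.0%. A paired-end ratio of 10 or more was found for 8 members, and for 2.86% of all genes tested there with an N2 level above 0 and under 1 FPKM. With single-end libraries no member had such a ratio, against 0.428% of the genes at that N2 level. The bound of 10 was chosen after the values were seen and lies just under the smallest of the 8 paired-end ratios, 10.7.

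The summed FPKM of the members differed between strains in opposite directions, from 16.7 in N2 to 63.5 in HC125 with paired-end libraries and from 96.1 to 69.9 with single-end libraries. The 8 low genes carried most of the first HC125 sum, of which dpy-17 and sqt-3 made up 26.9%. In the second HC125 sum dpy-17 and sqt-3 still made up 85.7%.

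Both experiments together bear on 3 genes most. A deposited p under 0.05 with a higher value in HC125 in both experiments was found for dpy-5, dpy-13 and rol-1, 3 of 10 members, against a background of 0.178%. The single-end 95% intervals of these 3 genes nevertheless span 1, with lower ends of 0.955, 0.970 and 0.945. A Stouffer combination of the signed deposited p-values, Benjamini-Hochberg adjusted over all genes tested in both, also called dpy-5, dpy-13 and rol-1, against 0.185% of all genes called higher. It reuses the same p-values and is no separate support. The adjusted p of this combination, from the authors' deposited tables, was 0.00463 for dpy-5, 0.00463 for dpy-13 and 0.00522 for rol-1. For sqt-1 it was 0.0876 and for rol-6 0.261. By the deposited test statistic the order differs, as rol-6 had the largest of the 10 in both experiments (4.63 and 1.998).

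All 10 members had the larger log2 ratio with paired-end libraries. So did all 6 annular furrow collagens, so this is not particular to the members, and the share over all genes is not given here. The difference between experiments was tested per gene with a z test on the implied errors, two-sided and adjusted over 12921 genes. None of the 10 passed, against 0.00774% of genes, and the adjusted p was 1.00 for every member. Before adjustment 3 had a p under 0.05 by this test. They were rol-8, with a single-end minus paired-end difference in log2 ratio of -3.10 ± 1.24 (implied SE), sqt-2 with -3.62 ± 1.52 and sqt-3 with -1.64 ± 0.71. For dpy-13 the difference was -1.13 ± 1.52 and for dpy-17 -0.20 ± 0.67. With errors of this size, a ratio called with paired-end libraries alone is not shown to differ from its single-end counterpart.

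**Figure D3:**
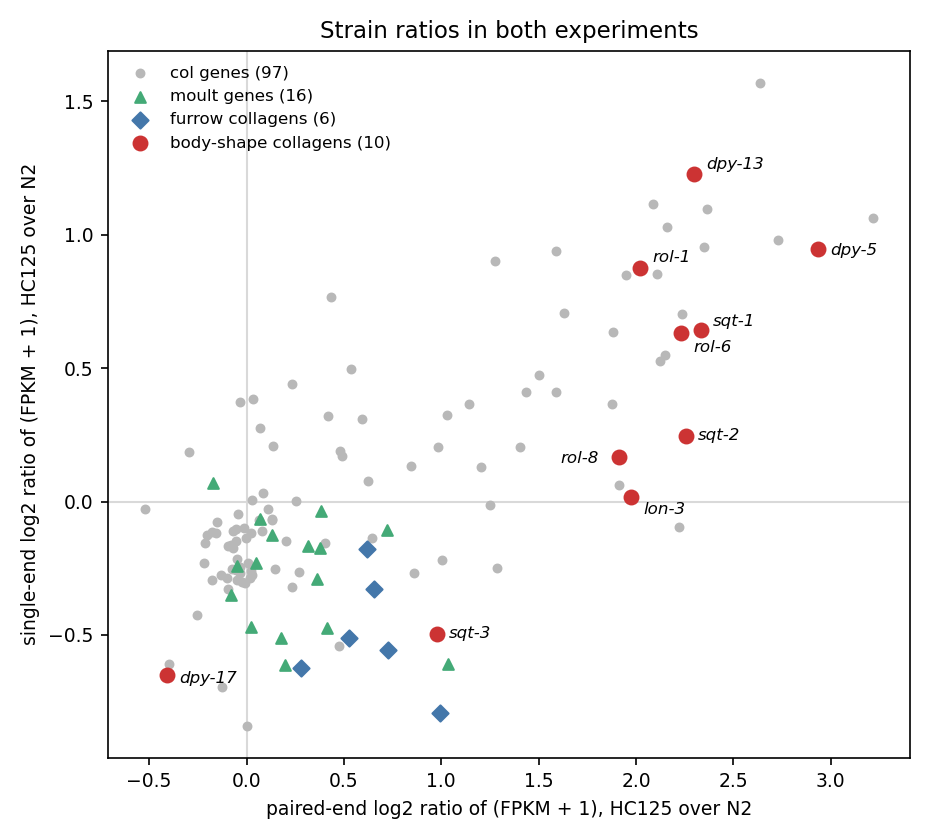
Log2 ratio of (FPKM + 1), HC125 over N2, in the paired-end (horizontal) against the single-end experiment (vertical), for genes tested in both. Each point is a gene: the 10 body-shape collagens (red, named), furrow collagens (diamonds), moult genes (triangles) and genes named col- (grey). The 8 low members lie to the right with single-end values above 0, whereas sqt-3 and dpy-17 lie below 0 on the vertical axis.

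The other cuticle collagens were set beside these values. The 6 annular furrow collagens, needed for the ring-shaped grooves of the cuticle, had no call in either experiment. All 6 were higher in HC125 with paired-end libraries (median log2 ratio of (FPKM + 1) 0.63) and all 6 lower with single-end libraries (median -0.53). dpy-7 among them measured 1.21 against 3.40 FPKM (p = 0.0092 in the authors' deposited table) and then 4.19 against 1.99 FPKM (p = 0.0466 there). dpy-10 measured 4.17 against 5.27 FPKM and then 11.1 against 6.87 FPKM (p = 0.01515 in the authors' deposited table). sqt-3 had the directions of the furrow collagens in both experiments, whereas the 8 low members had them with paired-end libraries but not with single-end libraries. No test of this likeness was made.

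Of 112 tested genes named col-, 10 (8.93%) were called higher with paired-end libraries and none lower, and 33 were higher and none lower at an unadjusted p under 0.05 (backgrounds 0.926% and 0.351%). With single-end libraries none of 101 was called, and 10 were higher and 1 lower at that p (backgrounds 1.22% and 1.16%). The family's median log2 ratio of (FPKM + 1) was 0.26 and -0.06. col-73 measured 0.724 against 15.04 FPKM and then 0.314 against 1.74 FPKM, and col-161 measured 0.671 against 9.40 FPKM and then 0.493 against 3.43 FPKM. Like dpy-5, both were under 1 FPKM in N2 and higher in HC125 in each experiment. col-77 measured 1.26 against 10.6 FPKM and then 3.02 against 7.58 FPKM. The most abundant genes of the family stood far above every member: col-119 measured 2347 against 2145 FPKM and then 7383 against 6108 FPKM, and col-122 measured 1984 against 1939 FPKM and then 6962 against 5781 FPKM. Cuticle collagens share repeats, and whether reads were split among similar genes was not tested.

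Blister collagens, among them the strut collagens bli-1 and bli-2 of the adult cuticle, had no call among 3 tested with paired-end libraries. With single-end libraries bli-6 alone was tested, and it was not called. bli-2 measured 0.124 against 5.08 FPKM with paired-end libraries (p = 0.202 in the authors' deposited table) and 0.262 against 0.167 FPKM with single-end libraries, where it was not tested. bli-6 measured 27.2 against 24.96 FPKM and then 23.3 against 17.8 FPKM. Collagens of basement membranes, which lie outside the cuticle, also had none called of 3, with let-2 at 61.8 against 62.0 FPKM and then 62.5 against 53.1 FPKM.

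The genes most like the members by the 4 pooled values, centred on the log2(FPKM + 1) scale, were grl-16, col-38, col-48, ZK180.5 and F59A7.12. Their Euclidean distances from the members' mean profile ran from 0.233 to 0.329. grl-16, a gene of the ground-like family, measured 0.319 against 3.80 FPKM and then 0.587 against 1.39 FPKM. col-38 measured 2.10 against 12.7 FPKM and then 3.62 against 5.76 FPKM. Both were called higher with paired-end libraries alone, as was ZK180.5. Of the members themselves, rol-8 lay nearest to the mean profile (0.227) and dpy-17 farthest (3.41).

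Genes that process cuticle collagens had similar values in both strains. They cover prolyl hydroxylation and folding (dpy-18, phy-2, pdi-1, pdi-2), cleavage (bli-4, dpy-31) and oxidative cross-linking (bli-3, mlt-7, tsp-15, doxa-1), together with dpy-11 and bli-5. None of 12 tested with paired-end and of 11 with single-end libraries was called or had an unadjusted p under 0.05. Their median log2 ratios of (FPKM + 1) were -0.02 and 0.02. pdi-2, a protein disulfide isomerase that partners the prolyl hydroxylases, measured 345 against 312 FPKM and then 218 against 231 FPKM.

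The DBL-1 pathway, a TGF-beta route that sets body size in the worm, held no call among 11 genes. Its median log2 ratios of (FPKM + 1) were -0.11 and -0.07, and no gene of it had an unadjusted p under 0.05. lon-1, which the pathway represses, measured 55.3 against 60.6 FPKM and then 104 against 96.8 FPKM. The receptor gene daf-4 measured 18.3 against 15.9 FPKM and then 12.2 against 11.6 FPKM.

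Most moult genes were higher in HC125 with paired-end and lower with single-end libraries. Of 18 tested with paired-end libraries, 15 were higher in HC125 (median log2 ratio of (FPKM + 1) 0.24). Of 16 tested with single-end libraries, 15 were lower (median -0.24), and none was called in either. noah-1, a matrix protein of the cuticle, measured 5.43 against 6.28 FPKM and then 14.5 against 9.85 FPKM (p = 0.0075 in the authors' deposited table). noah-2 measured 4.65 against 5.48 FPKM and then 19.4 against 12.4 FPKM (p = 0.0041 in the authors' deposited table). Both were lower in HC125 with single-end libraries, as sqt-3 and dpy-17 were. mlt-8 measured 2.23 against 5.63 FPKM (p = 0.0166 in the authors' deposited table) and then 7.13 against 4.33 FPKM (p = 0.0327 there). mlt-11 measured 0.770 against 1.36 FPKM and then 3.98 against 2.58 FPKM (p = 0.0183 in the authors' deposited table). mlt-9 and the hedgehog-related gene qua-1 were low in N2, as most members were. mlt-9 measured 0.267 against 1.09 FPKM (p = 0.00475 in the authors' deposited table) and then 0.466 against 0.362 FPKM. qua-1 measured 0.558 against 1.67 FPKM (p = 0.00565 in the authors' deposited table) and then 0.252 against 0.177 FPKM without a test. The list summed to 114 against 121 FPKM and then to 97.2 against 77.4 FPKM, and its part in the collagen values was not tested.

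**Figure D4:**
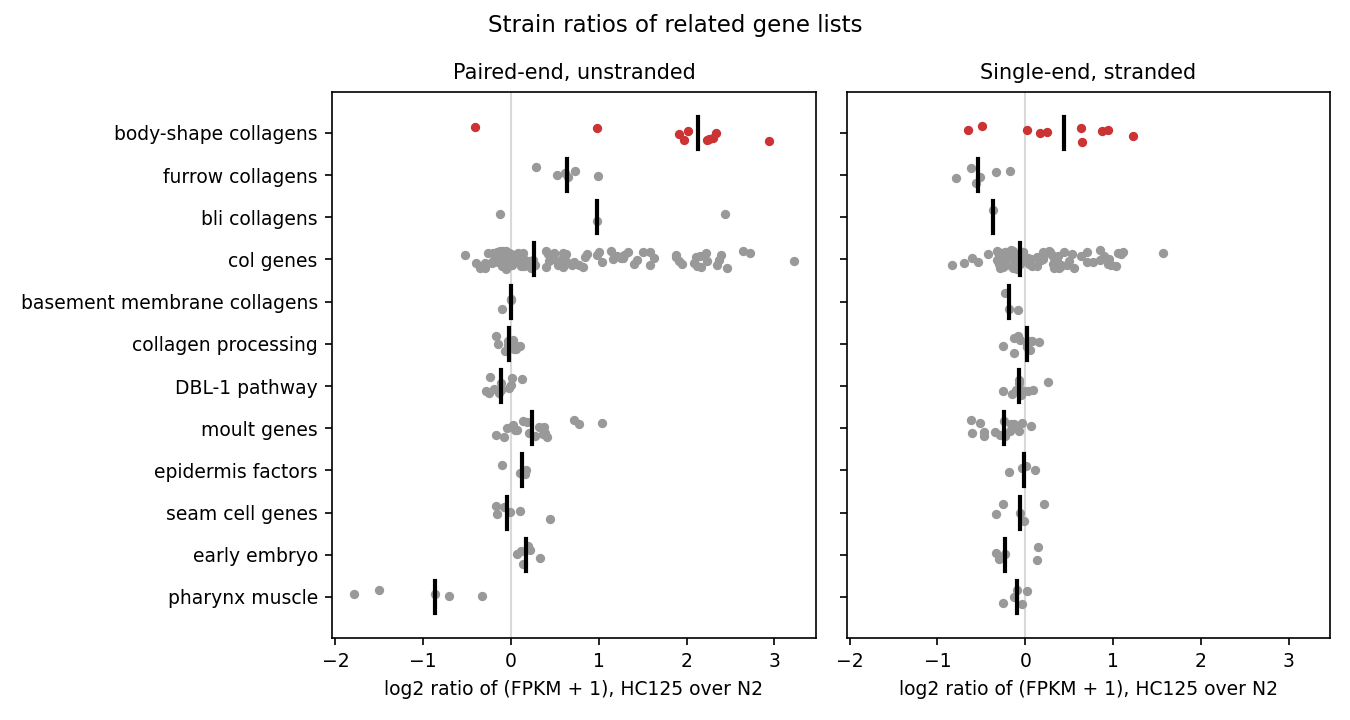
Log2 ratio of (FPKM + 1), HC125 over N2, of each tested gene (points) by gene list, with the median as a black bar, in the paired-end (left) and single-end (right) experiment. The body-shape collagens (red) have medians of 2.13 and 0.44, and the collagen processing and DBL-1 lists have medians between -0.11 and 0.02.

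Markers of other cells and stages differed in part with the experiment; the sums below leave out genes without a usable estimate. Epidermal identity factors had no call among 4 and summed to 101 against 98.3 FPKM and then to 55.5 against 53.3 FPKM. Seam cell genes, with egl-18 at 30.2 against 28.6 FPKM and then 31.6 against 31.2 FPKM, also had none called. Early embryonic genes were higher in HC125 in 6 of 6 tested with paired-end and 2 of 5 with single-end libraries, with sums of 4.88 against 6.41 FPKM and then 8.08 against 6.82 FPKM. All 5 pharyngeal muscle genes were lower in HC125 with paired-end libraries, and myo-1 (14.4 against 3.47 FPKM) and myo-2 (9.12 against 2.56 FPKM) were called lower. The pharynx list summed to 132 against 69.6 FPKM and then to 55.3 against 49.3 FPKM. Body wall muscle genes summed to 1081 against 1042 FPKM and then to 714 against 1018 FPKM, with unc-54 called higher by the single-end table. Major sperm protein genes summed to 2816 against 3044 FPKM and then to 328 against 664 FPKM, with none called. With single-end libraries all 28 tested sperm genes were higher in HC125 (background 40.04%), 19 of them with a deposited p under 0.05 (background 1.22%). With paired-end libraries 23 of 29 were higher (background 41.7%), none of them at that p, and 1 was lower at that p (background 0.351%). Oocyte genes (3108 against 2747 FPKM, then 4173 against 3871 FPKM) and intestine genes (1137 against 1019 FPKM, then 8127 against 7761 FPKM) had none called. The intestine sums cover unlike genes: vit-2, at 3099 against 3476 FPKM, enters the single-end sums only, as it had no usable paired-end estimate. The part of these cells and stages in the collagen values was not tested.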

How the data were processed

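The authors deposited 1 gene table per experiment, which per the file headers has Cuffdiff's layout. TopHat2 2.0.1 and Cufflinks 2.2.1 are named in the submitters' processing notes; the genome build, not given in the sources used here, was not assumed. The FPKM values, the test statistic (a score per gene), the p-value and the q-value, adjusted over genes tested, were computed by the authors, per the file headers. Genes without a completed test (5427 paired-end, 7391 single-end) were left out of counts, medians and backgrounds. Summed FPKM of lists keeps genes that were not tested but have a usable estimate, and values of bli-2 and qua-1 are given without a single-end test. Positions come from the WBcel235 annotation of Ensembl, which holds 20194 of the 20541 listed identifiers.

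A call is a deposited q of 0.05 or less. Intervals use the standard error implied by the statistic (log2 ratio divided by it) and a normal approximation; they need not match the deposited p. Percentiles are shares of tested genes with a lower FPKM. The z test and the Stouffer combination ran across all genes (Python 3.11.15, scipy 1.17.1), limma 3.58.1 on the 2 ratios per gene in R 4.3.3; all were tested on simulated data. The members and lists were chosen with earlier results of these data known. Named genes are the members, sid-1, list genes called or with an unadjusted p under 0.05 (otherwise the 2 most abundant; for the col and msp families up to 4 called in the paired-end table and the 2 most abundant), and the 5 genes most like the members; others named (ZK836.2 and genes of list descriptions) were chosen after their values were seen. 1 listed moult gene was not found by symbol.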

Additional observations from a re-analysis of the deposited data

How the results depend on the processing

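The 5 calls of the paired-end table stayed at 5 with a minimum ratio of 2 and with a filter at 1 FPKM, and became 6 at a q of 0.1, when sqt-2 joined. The filter asks for 1 FPKM in either strain, and the 5 called genes, all under 1 FPKM in N2, passed it through HC125 alone. Their ratios were 10.7 or more, so the minimum ratio could remove none of them. Neither setting is thus a check of these calls. At a q of 0.01 the number was 0, by construction, since the smallest q of that table is 0.0270. The single-end count stayed at 0 under all 4 of these settings (Cuffdiff, 4 members at an unadjusted p under 0.05). Calls in both tables numbered 0 under them and 3 by the Stouffer combination. limma on the 2 ratios called 0 members and 0 genes in all, so it says nothing of the members. The paired-end median log2 ratio was 3.49 with a pseudocount of 0.1 and 0.82 with a pseudocount of 5, and the single-end median was 1.13 with a pseudocount of 0.1 and 0.11 with a pseudocount of 5, beside 0.44 with 1; the members' low FPKM makes this choice count. Centring on all genes moved no member's ratio beyond its implied error, and adding 1 to the FPKM did so for 10 of 20 ratios, with no change of direction. The number of members differing between experiments stayed at 0 under both alternatives. No paired analysis was possible because each table holds 1 pooled value per strain, and for the same reason no replicate could be left out. Unknown depth limits what can be said of genes under 1 FPKM.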

Other observations

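These values were chosen after they were seen. In the paired-end table the order of the members by test statistic is not their order by deposited p. In the authors' deposited table rol-6 has the largest statistic of the 10 (4.63) with p = 0.0012 and sqt-2 has 4.47 with p = 0.00025, whereas rol-1 has 3.71 and dpy-13 3.75, each with p = 5e-05 in the authors' deposited table. That p is the smallest in the table and is shared by 28 of the 15114 genes tested, of which 5 are members and 10 are named col-. Among all genes tested there, 10 are members and 112 are named col-. The 28 include genes lower in HC125, such as sid-1, myo-1 and myo-2. For the members a call and the size of the statistic are therefore different rankings.

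Of the 23 genes with a higher value and an unadjusted p under 0.05 in both of the authors' deposited tables, 3 are members, 9 are named col- and 11 are neither, and no furrow collagen or listed moult gene is among them. Over the 12954 genes tested in both, 10 are members and 97 are named col-. Of the 24 genes called higher by the Stouffer combination, 3 are members and 11 are named col-.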
